A study of Mus musculus with 16 samples.

Results

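RNA-seq of tibialis anterior (TA), a fast muscle at the front of the shin, was used to describe the genes of the cytosolic ribosomal proteins. Members were the rows of the normalized count table whose symbol is Rpl or Rps followed by a number, with an optional a, x, l or l1, together with Rplp0, Rplp1, Rplp2 and Rpsa. Symbols with -ps and the Rps6k kinases were left out. This gave 82 of 14538 genes, of which 50 carry a large subunit symbol (Rpl or Rplp) and 32 a small subunit symbol (Rps or Rpsa). The vehicle group had 5 mice, the GDF15 group 6 and the pair-fed group 5, with 1 library per mouse. All were male C57BL/6J wild-type mice that were held at about 29 °C and were given a NASH diet, which is rich in fat and fructose, from 8 weeks of age. GDF15-treated mice were injected subcutaneously each morning with recombinant GDF15, a hormone whose receptor GFRAL lies in the hindbrain. The methods of the study list doses of 0.3, of 1 and of 5 nmol per kg, and an experiment at another site used a higher dose. The sources used here do not say which dose the sequenced mice received or for how long. Each day the pair-fed mice were limited to the previous day's intake of the GDF15 group, so that GDF15 against pair-fed sets the hormone against an equal food intake and pair-fed against vehicle shows the effect of eating less.

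Each ribosome holds one copy of most of these proteins, bound to ribosomal RNA in a small subunit that decodes the mRNA and a large subunit that joins amino acids. Their genes are scattered over the genome, but their mRNAs are known to share a 5′ terminal oligopyrimidine (TOP) tract, a C followed by a run of pyrimidines at the very start of the mRNA, through which mTORC1 and the LARP1 protein set their translation according to nutrients. In skeletal muscle the large-subunit protein RPL3 has a muscle-restricted paralogue, RPL3L, and ribosome content is tied to protein synthesis and muscle mass. mRNA levels, as measured here, are not ribosome content, and TOP control acts mainly on translation, which RNA-seq does not measure.

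The members lay on 19 chromosomes, and 4 of them, Rps4x, Rpl10, Rpl36a and Rpl39, lay on the X chromosome. RefSeq promoter sequences (GRCm38.p6) were matched for 61 of the 82 members. A run of at least 6 pyrimidines that opens with C, on the strand of the gene and within 30 bases on either side of an annotated start, was found in 46 of the 61 (75.4%), against 4276 of 9471 tested genes (45.1%) and 11825 of 27025 genes with a promoter (43.8%). Genes with several annotated starts counted if any of them had the run. Among genes of translation factors known or thought to carry a TOP tract, 13 of 23 (56.5%) had the run, and among ribosome biogenesis genes 18 of 51 (35.3%) did. Such a run is a match of letters and not a mapped start of an mRNA. The other 21 members were not matched to a promoter.

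The 5 members that passed the test in at least one comparison are shown first, since the results below turn on them, and Rps6 and Rps18 follow as examples in which the run crosses the annotated start. Each line gives 60 bases, 5′ to 3′ on the strand of the gene, with the annotated start at base 31 and the longest such run in capitals.
Rpl4: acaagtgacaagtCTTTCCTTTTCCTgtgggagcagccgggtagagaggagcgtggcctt
Rpl12: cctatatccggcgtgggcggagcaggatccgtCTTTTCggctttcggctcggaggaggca
Rps4x: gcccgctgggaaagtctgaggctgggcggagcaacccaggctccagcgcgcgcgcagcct
Rpl10: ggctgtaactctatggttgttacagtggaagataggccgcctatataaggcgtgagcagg
Rpl36a: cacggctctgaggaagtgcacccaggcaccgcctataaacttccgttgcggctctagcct
Rps6: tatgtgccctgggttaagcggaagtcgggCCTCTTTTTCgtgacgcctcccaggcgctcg
Rps18: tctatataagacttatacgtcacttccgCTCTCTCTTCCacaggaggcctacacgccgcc
The windows lie at chr9:64173357-64173416 (plus strand, Rpl4), chr2:32961682-32961741 (plus, Rpl12), chrX:102189362-102189421 (minus, Rps4x), chrX:74270786-74270845 (plus, Rpl10), chrX:134585624-134585683 (plus, Rpl36a), chr4:86857338-86857397 (minus, Rps6) and chr17:33955636-33955695 (minus, Rps18). The run was 13 bases long in Rpl4, 6 in Rpl12, 10 in Rps6 and 11 in Rps18. No run of this kind was found in the windows of Rps4x, Rpl10 and Rpl36a, which says only that these letters are not within 30 bases of the annotated start.

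Depth was not read from the sources but estimated for each library, from the spacing of low values in genes with 1 annotated transcript. It covers only reads assigned to the 14538 genes. The estimates were approximately 11861722 to 15039282 reads in vehicle, 9486310 to 13838696 in GDF15 and 11774516 to 14788070 in pair-fed mice. These ranges overlap. With this estimate as a covariate the calls of Rpl12 in GDF15 against pair-fed and of Rps4x in GDF15 against vehicle were lost. No pair of libraries held identical values. Values are normalized counts, the authors' log2 values transformed back to a linear scale. All 8 markers of skeletal muscle fibre were present in the table, and their summed level was between 2.56 and 2.84 in vehicle, 2.64 and 2.89 in GDF15 and 2.79 and 3.18 in pair-fed mice, in units of 1000000 normalized counts. In pair-fed against vehicle 3 of these 8 passed the test as higher and 1 as lower. Of all tested genes 3.2% passed as higher and 3.17% as lower in that comparison, and 0.338% as lower in GDF15 against vehicle. The summed level of the 5 endothelial markers was 4301 to 5168 normalized counts in vehicle, 3647 to 4457 in GDF15 and 3814 to 4593 in pair-fed mice, with 1 of 5 lower in each comparison with vehicle. The 7 macrophage and other immune markers summed to 280 to 473, 232 to 541 and 201 to 507 normalized counts in vehicle, GDF15 and pair-fed mice, and 1 of 7 was lower in pair-fed against vehicle. No marker of the other lists (satellite cell, fibroblast, adipocyte, erythroid, Schwann cell and slow fibre) passed. In whole muscle, fewer cells of a type and less RNA per cell cannot be told apart, and the part of these markers in the results below was not tested.

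In vehicle mice the level per kilobase of transcript differed widely among the members. It ranged from 1.41 (Rpl39l) to 8084 (Rps2) normalized counts per kb, with a median of 2504 and middle values between 1185 and 3417. The most abundant were Rps2, a protein at the mRNA entry of the small subunit, with 8084 ± 433 (SD, n = 5), Rplp1, an acidic protein of the stalk that recruits elongation factors, with 7513 ± 315, and Rpl23a, at the exit of the peptide tunnel, with 5777 ± 364. Rps2 and Rplp1 differed by less than the sum of their SDs, and Rplp0, the base of the stalk, followed Rpl23a within the spread between mice at 5492 ± 185. The muscle paralogue Rpl3l, at rank 5, had 5222 ± 271. At the other end stood Rpl39l, Rps27 (29.4 ± 17.4) and Rps4l (42.1 ± 6.16), followed by Rpl12 (48.8 ± 11.97).

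**Figure D1:**
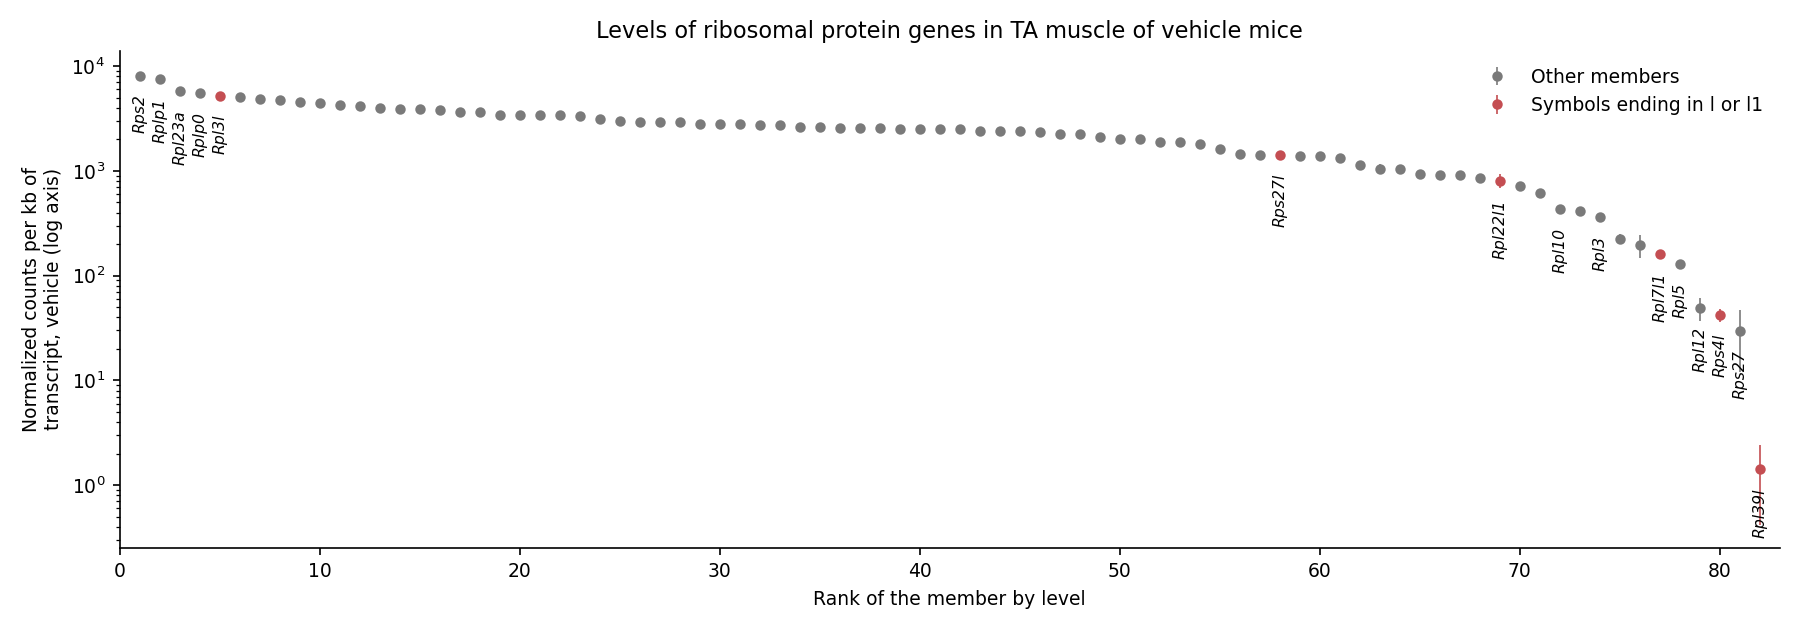
Normalized counts per kilobase of transcript (log axis) of the 82 members in TA muscle of 5 vehicle mice, by rank, with points for the mean, bars for the SD and names for some of the genes described in the text. Rpl3l, in red with the other symbols ending in l or l1, lay at rank 5 with 5222 per kb, while Rpl39l was at 1.41.

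A low level of a member need not mean a low level of its protein's mRNA, because many ribosomal protein genes have processed copies elsewhere in the genome. For 51 of the 82 members at least 50% of the 31-base stretches of the transcript also occurred in transcripts of other genes (median 57.1%), and for 17 members at least 80% did. High shares were found at both ends of the order. Among the most abundant members the share was 85.3% for Rps2, 83.2% for Rpl23a and 75.1% for Rplp1. Among the low members it was 98.7% for Rps27, 90.5% for Rps12, 92.3% for Rpl10 and 87.6% for Rpl3, but 2.19% for Rpl39l, 20.8% for Rpl7l1 and 30.8% for Rps4l, and of the 15 other genes that share sequence with Rps27 the one that shares most was Rps27rt, itself listed at a mean of 0.866 normalized counts. It was 49.8% for Rpl12 and 49.0% for Rpl5, 78.4% for Rps4x, 87.6% for Rpl36a and 32.2% for Rpl4. For Rpl3l it was 0%. How reads were divided among such copies depends on the transcripts used for quantification, so the levels of the members with high shares are uncertain. The transcript lengths used for Rps15a and Rps20 (5130 and 3706 bases) are long for these small proteins, and their values per kb are uncertain for that reason.

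The members varied little between mice of a group. The SD of log2 values within groups had a median of 0.0732 over the 81 members whose mean reached 10 normalized counts and of 0.174 over all 11841 tested genes. Among abundant genes, with a mean of at least 500, it was 0.0695 for 72 members and 0.0933 for 3276 genes in all. Rps27 (0.639), Rps12 (0.290), Rpl12 (0.264) and Rpl10 (0.253) varied most, and Rps12 is named here only after its values were seen. These had means of 11.8, 109, 73.1 and 444 normalized counts. Together the members took 1.27% ± 0.0274 of all normalized counts in vehicle (SD, n = 5), 1.32% ± 0.0189 in GDF15 (n = 6) and 1.26% ± 0.0335 in pair-fed mice (n = 5). The 6 GDF15-treated mice lay between 1.29% and 1.34%, the vehicle mice between 1.23% and 1.31% and the pair-fed mice between 1.22% and 1.31%, so that the groups overlapped.

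**Figure D2:**
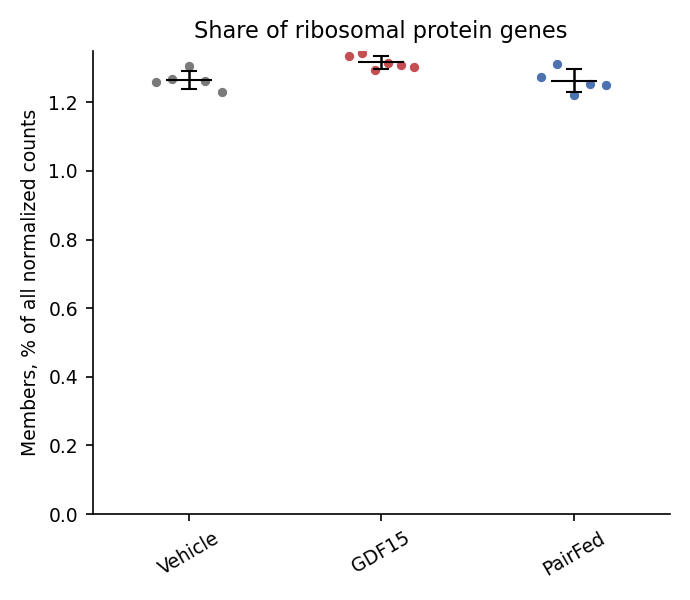
Share of all normalized counts taken by the 82 members in each mouse, with points for mice and bars for the mean and SD. GDF15-treated mice lay between 1.29% and 1.34%, and their range overlapped those of the other groups.

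Groups were compared by limma, on log2 of the normalized count plus 1, over the 11841 genes whose mean reached 10, and p-values were adjusted over these genes by the Benjamini-Hochberg method. A gene is said to pass at an adjusted p under 0.1, and to pass both thresholds when its log2 fold change was also above 0.6 in size. Of the members only Rpl39l, with a mean of 0.661 normalized counts, was not tested.

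With GDF15 set against pair-feeding, which asks what the hormone changed at the same food intake, the ribosomal protein genes differed little. One member passed, Rpl12, which was lower with GDF15, and none was higher. Of all tested genes 0.929% passed as higher and 1.24% as lower. The count of members past both thresholds was 0, against 0.279% of all genes. At an unadjusted p under 0.05, limma gave 0 members as higher and 1 as lower, against 6.29% and 6.87% of all genes. No member had groups that did not overlap in either direction, against 0.718% of all genes for higher and 1.06% for lower. The median log2 fold change was 0.02 over the members and 0.00 over all tested genes, 55 of 81 members lay above 0, and 78 of 81 lay within 0.2 of 0. Under total scaling the count above 0 was 70 and the median 0.0615, beside a median of 0.0450 over all genes. The count was 43 with depth as a covariate, 45 with GC and length correction and 42 without pair-fed mouse 4, where the median was 0.000762. Without pair-fed mouse 2 it was 67 and the median 0.0324. The median SE of a member was 0.05.

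Rpl12, a large-subunit protein at the base of the stalk, had 96.4, 78.1, 102, 100 and 104 normalized counts in the pair-fed mice. In GDF15-treated mice it ranged from 50.3 to 83.5 with a median of 62.9, and in the vehicle mice it had 74.5, 76.5, 60.3, 46.7 and 45.0. All 5 pair-fed mice lay above the vehicle mice, and 1 of them (78.1) lay below the highest GDF15-treated mouse. The log2 fold change of GDF15 against pair-fed was -0.59 (SE 0.16, limma adjusted p = 0.0852). Against vehicle it was 0.10 with GDF15 (SE 0.16, adjusted p = 0.872) and 0.69 with pair-feeding (SE 0.16, adjusted p = 0.0297). The call of GDF15 against pair-fed was lost, at an adjusted p of 0.108 to 0.198, when any one of GDF15 mice 1, 2, 3, 4 and 6 or pair-fed mice 2, 4, 5 and 6 was left out. With a mean of 73.1 normalized counts, Rpl12 is among the least abundant members. Under 6 other settings, total scaling among them, the call was also lost.

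With GDF15 set against vehicle, the members lay slightly higher in GDF15-treated mice. The median log2 fold change was 0.07, or 4.68%, over the members and 0.00 over all tested genes, and 72 of 81 members lay above 0. It was 0.0440 with GC and length correction (66 above 0) and 0.0574 with depth as a covariate (67 above 0). Leaving out vehicle mouse 5 gave 0.0518 (66 above 0), and leaving out vehicle mouse 3 gave 0.0827 (75 above 0). At an unadjusted p under 0.05, 20 members were higher and 0 lower, against 5.63% and 5.41% of all genes. After adjustment 1 member passed as higher, Rps4x, and 0 as lower by limma, against 0.431% and 0.338% of all genes, and 0 passed both thresholds (0.304% of all genes). The members deviate together within a library, with the median member between -0.10 and 0.07 on the log2 scale from its mean, so that they do not give independent counts. In 5 members the groups did not overlap, all higher with GDF15, and in 0 were they lower, against 0.785% and 0.861% of all genes. These were Rps4x, Rpl10, Rplp1, Rpl7a and Rpl35, of which Rpl7a and Rpl35 were named after their values were seen.

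Rps4x, the X-linked gene of a small-subunit protein, had 2779, 2702, 2784, 2776 and 2563 normalized counts in the vehicle mice. In GDF15-treated mice it ranged from 2961 to 3068 with a median of 3028, and in the pair-fed mice it had 3047, 3081, 2868, 3094 and 3018. All 11 treated or pair-fed mice lay above all vehicle mice, and the treated and pair-fed mice overlapped. The log2 fold change against vehicle was 0.16 with GDF15 (SE 0.03, limma adjusted p = 0.0447) and 0.15 with pair-feeding (SE 0.03, adjusted p = 0.0199). Both comparisons use the same vehicle mice. The call with GDF15 was lost with a trend-free variance, with the mouse number as a replicate block, with depth as a covariate and without vehicle mouse 2 (adjusted p = 0.114) or vehicle mouse 5 (adjusted p = 0.117), while that with pair-feeding held with each mouse left out.

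Rpl10, the X-linked gene of a late-joining protein of the large subunit, had 352, 310, 323, 356 and 373 normalized counts in vehicle. It ranged from 382 to 567 with a median of 468 with GDF15 and had 364, 681, 636, 411 and 498 in the pair-fed mice. Each GDF15-treated mouse lay above every vehicle mouse, and 1 pair-fed mouse lay within the vehicle range. The log2 fold change was 0.44 with GDF15 (SE 0.14, limma adjusted p = 0.213) and 0.56 with pair-feeding (SE 0.14, adjusted p = 0.0390). When only the groups compared were fitted, it passed with GDF15 as well.

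Among members that did not pass, Rplp1 had 3757, 3750, 3838, 3908 and 3493 normalized counts in vehicle and ranged from 4003 to 4120 with GDF15 (log2 fold change 0.11, SE 0.03, limma adjusted p = 0.224). Rpl7a was 3011 to 3233 in vehicle and 3306 to 3443 with GDF15, a log2 fold change of 0.10. Rpl35 was 791 to 832 in vehicle and 851 to 950 with GDF15, a log2 fold change of 0.14. Rpl13a, of the large subunit, differed by 0.11 with GDF15 (limma adjusted p = 0.317) and by 0.11 with pair-feeding (adjusted p = 0.168) on the log2 scale. RPL13A is also known as a translation silencer in inflammation. Rps10 differed by 0.09 with GDF15. On the other side, Rpl5, which with RPL11 binds the p53 regulator MDM2 when ribosome assembly is disturbed, had a log2 fold change of -0.11 (SE 0.10, adjusted p = 0.765).

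**Figure D3:**
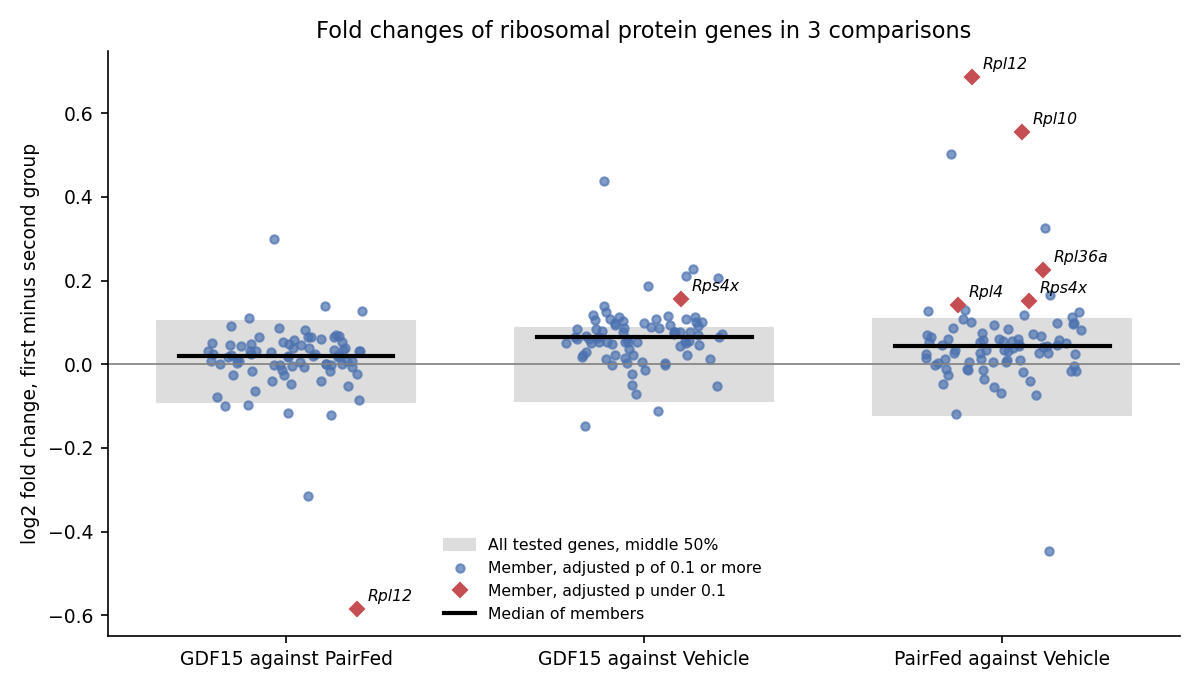
Log2 fold changes (first minus second group) of the 81 tested members in the 3 comparisons, with red diamonds for members at an adjusted p under 0.1, a black line for the median of the members and a grey band for the middle 50% of all tested genes. The medians were 0.02, 0.07 and 0.04, and the members that passed were Rpl12, Rps4x and, in pair-fed against vehicle, Rps4x, Rpl12, Rpl10, Rpl36a and Rpl4.

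With pair-feeding set against vehicle, 5 members passed, all higher in pair-fed mice, and 0 were lower by limma, against 3.2% of all genes higher and 3.17% lower. The 5 are 6.17% of the 81 tested members. Among the 77 autosomal members 2 passed, or 2.6%. With 1 mouse left out, 3 to 7 of the 81 passed, and without pair-fed mouse 3 Rps4l was among them as lower. Rpl12 alone passed both thresholds (0.819% of all genes did), but 0 members did without vehicle mouse 5, where its log2 fold change was 0.59, or on the deposited log2 values, and 2 did without pair-fed mouse 2 or 5. At an unadjusted p under 0.05, 12 members were higher and 1 lower, against 9.04% and 9.82% of all genes. Rps4x and Rpl12 had groups that did not overlap, both higher with pair-feeding, and 0 members were lower in this way, against 2.79% and 2.65% of all genes. The median log2 fold change was 0.04 over the members and 0.00 over all genes, with 63 of 81 members above 0. This direction depends on the scaling: in units of 1000000 normalized counts, the pair-fed libraries sum to 12.8 to 13.5 and the vehicle libraries to 12.4 to 12.9. With all libraries scaled to the same total, the median of the members was -0.00282 with 38 of 81 above 0, beside a median of -0.05 over all genes.

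Of the 5 members, Rps4x, Rpl10 and Rpl36a are on the X chromosome. Of the 4 X-linked members 3 passed, while of all 368 tested X-linked genes 10 passed as higher and 6 as lower, and their median log2 fold change was 0.00. This grouping was noticed after the values were seen and is given as a count only. Rpl39, the remaining X-linked member, had 732, 675, 792, 661 and 610 normalized counts in vehicle and 736, 719, 684, 754 and 711 in the pair-fed mice, a log2 fold change of 0.06 (SE 0.06, limma adjusted p = 0.693). The pair-fed values of Rpl39 lay within the range of the vehicle mice.

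Rpl36a, which lies at the E site of the large subunit, had 437, 416, 438, 465 and 450 normalized counts in vehicle and 530, 530, 514, 551 and 457 in the pair-fed mice, while GDF15-treated mice ranged from 453 to 524 with a median of 473. Of the pair-fed mice 4 lay above all vehicle mice and 1 within their range. The log2 fold change was 0.22 with pair-feeding (SE 0.06, limma adjusted p = 0.0417) and 0.12 with GDF15 (SE 0.06, adjusted p = 0.412). The call was lost without vehicle mouse 2 (adjusted p = 0.102) or pair-fed mouse 5 (adjusted p = 0.113).

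Rpl4, one of the largest proteins of the large subunit and part of the wall of the peptide tunnel, had 7122, 6758, 7374, 7065 and 6665 normalized counts in vehicle and 8098, 7540, 7276, 7938 and 7744 in the pair-fed mice. With GDF15 it ranged from 7079 to 7913, with a median of 7451. Of the pair-fed mice 4 lay above all vehicle mice. The log2 fold change was 0.14 with pair-feeding (SE 0.04, limma adjusted p = 0.0576) and 0.09 with GDF15 (SE 0.04, adjusted p = 0.349). The call was lost without vehicle mouse 2 or 5 or pair-fed mouse 2, 5 or 6, at adjusted p-values of 0.114 to 0.139, and also under total scaling (adjusted p = 0.110) and without the trend in the variance (adjusted p = 0.128).

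**Figure D4:**
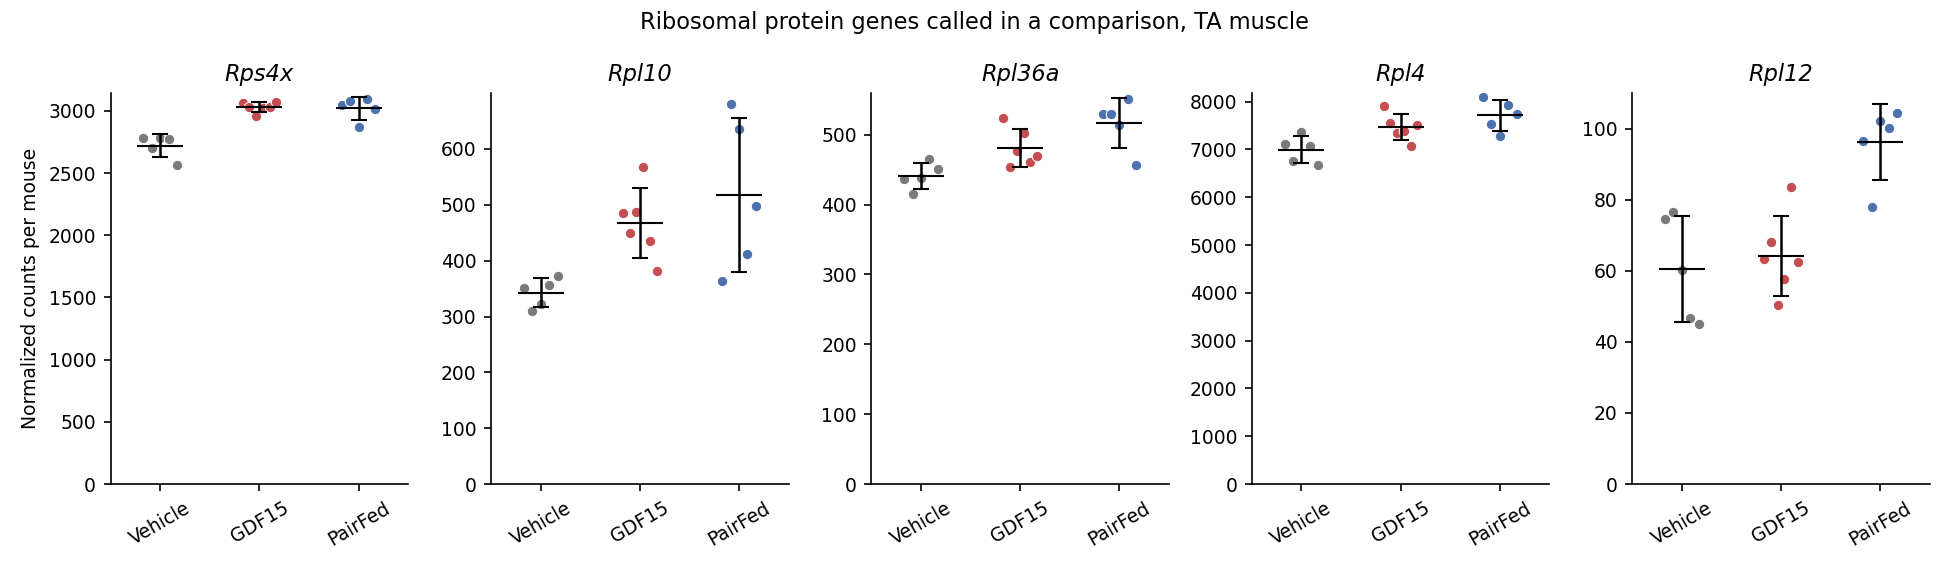
Normalized counts of the 5 members that passed in a comparison, by mouse, with points for mice and black bars for the mean and SD of 5 vehicle, 6 GDF15-treated and 5 pair-fed mice. All GDF15-treated and pair-fed mice lay above the vehicle mice in Rps4x, and all pair-fed mice lay above the vehicle mice in Rpl12.

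Lowest against vehicle was Rps4l, which is annotated as a transcribed processed pseudogene and shares only 0.659% of its 31-base stretches with Rps4x. It had 36.9, 26.0, 34.8, 37.7 and 30.7 normalized counts in vehicle and 24.5, 32.9, 19.9, 23.7 and 20.6 in the pair-fed mice, which overlapped, with a log2 fold change of -0.45 (SE 0.17, limma adjusted p = 0.169). Without pair-fed mouse 3, the highest of them, it passed as lower (log2 fold change -0.56, adjusted p = 0.0724). Rps6, the classical target of S6 kinase, had 2234, 2054, 2153, 2514 and 2164 normalized counts in vehicle, 2053 to 2405 with GDF15 and 2277, 2394, 1976, 2153 and 2183 in pair-fed mice. Its 95% interval was -0.11 to 0.12 on the log2 scale for GDF15 against vehicle and -0.14 to 0.10 for pair-fed against vehicle. For Rplp0, often used as a reference gene in qPCR, the interval for GDF15 against vehicle was -0.01 to 0.13 around a log2 fold change of 0.06, and the 6 GDF15-treated mice lay between 7417 and 7975 against 7208 to 7838 in vehicle.

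In this muscle Rpl3l was far more abundant than Rpl3, the gene it replaces in mature fibres. The vehicle mice had 7252, 6931, 7802, 6974 and 6940 normalized counts of Rpl3l and 466, 551, 491, 481 and 444 of Rpl3. With GDF15, Rpl3l ranged from 6788 to 7281 and Rpl3 from 513 to 689 with a median of 565. The pair-fed mice had 7095, 6995, 6894, 7073 and 6645 of Rpl3l and 513, 521, 520, 475 and 582 of Rpl3. Within a mouse Rpl3l was 14.8 ± 1.37 times Rpl3 in vehicle (SD, n = 5), 12.5 ± 1.48 times with GDF15 (n = 6) and 13.4 ± 1.26 times in pair-fed mice (n = 5). Since most of the sequence of Rpl3 is shared with other genes, the absolute size of this ratio is uncertain. The log2 ratio was 0.25 lower with GDF15 than with vehicle (difference -0.25, two-sided exact permutation p = 0.0281, adjusted p = 0.253 over 9 tests), and the groups overlapped. It differed by -0.15 between pair-fed and vehicle (exact permutation p = 0.151, adjusted p = 0.452) and by -0.10 between GDF15 and pair-fed (exact permutation p = 0.329, adjusted p = 0.657). With these group sizes the smallest exact p is 0.00433 for 6 against 5 mice and 0.00794 for 5 against 5. Rpl3 itself had a log2 fold change of 0.23 with GDF15 against vehicle (SE 0.08, limma adjusted p = 0.249).

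**Figure D5:**
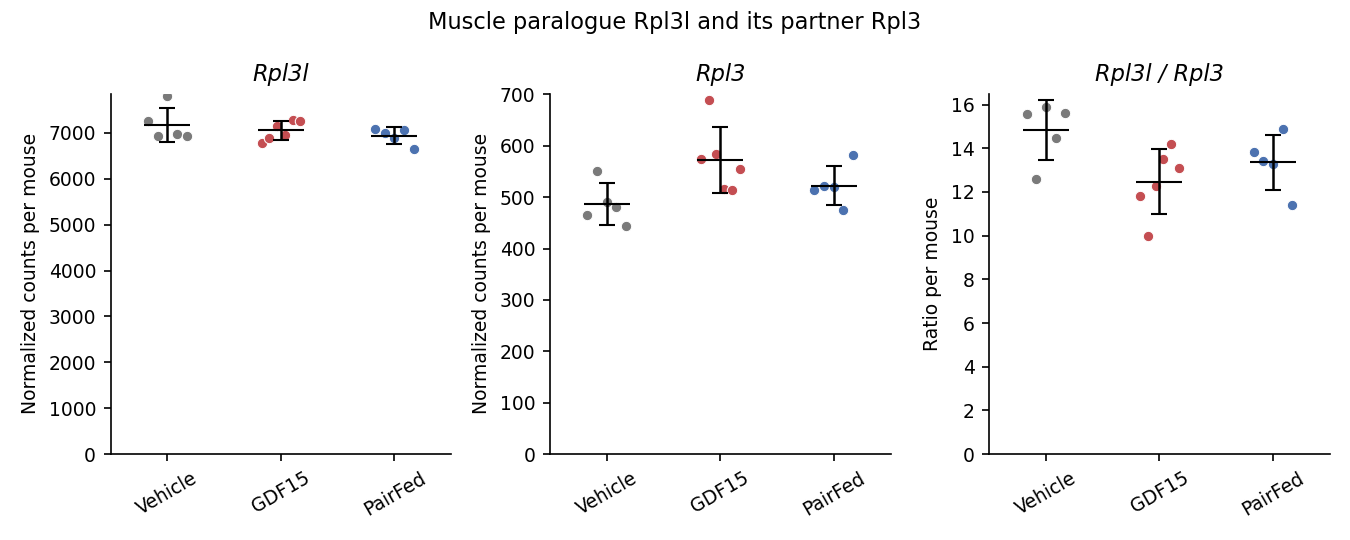
Normalized counts of Rpl3l and of Rpl3 and their ratio, by mouse, with points for mice and black bars for the mean and SD. The ratio was 14.8 in vehicle, 12.5 with GDF15 and 13.4 in pair-fed mice, and the groups overlapped.

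The ratio was tested for 3 pairs, and none of the 9 tests, those of Rpl3l to Rpl3 included, passed after adjustment. Rpl22l1 was expressed at 0.316 ± 0.0380 of the level of Rpl22 in vehicle, 0.296 ± 0.0449 with GDF15 and 0.307 ± 0.0268 in pair-fed mice. The log2 ratio of Rpl22l1 to Rpl22 differed by -0.10 between GDF15 and vehicle (exact permutation p = 0.411), by -0.06 between GDF15 and pair-fed (exact permutation p = 0.556) and by -0.04 between pair-fed and vehicle (exact permutation p = 0.675). Rps27l, known as a p53 target, had 700 ± 37.0 normalized counts in vehicle (SD, n = 5) while Rps27 was listed at 10.1 ± 6.02. Its log2 ratio to Rps27 differed by -0.24, 0.23 and -0.47 in GDF15 against vehicle, GDF15 against pair-fed and pair-fed against vehicle, with exact permutation p-values of 0.584, 0.563 and 0.151. Rpl7l1 had 420 ± 18.2 normalized counts in vehicle against 2930 ± 129 for Rpl7, and this ratio was not tested. Rpl39l was at 0 in 1 of 5 vehicle, 4 of 6 GDF15-treated and 4 of 5 pair-fed mice and reached at most 2.25 normalized counts. Rpl10l has no row in the table used here.

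Of 4 ribosomal protein genes with other symbols, 0 passed in any comparison by limma, against 0.929% of all genes higher and 1.24% lower in GDF15 against pair-fed, 0.431% and 0.338% in GDF15 against vehicle and 3.2% and 3.17% in pair-fed against vehicle. At an unadjusted p under 0.05, 1 of the 4 was lower in pair-fed against vehicle (9.82% of all genes were) and 0 passed in GDF15 against pair-fed (6.29% and 6.87%) or in GDF15 against vehicle (5.63% and 5.41%). Rps3a1, Fau and Rpl36al had 3645, 1140 and 949 normalized counts in vehicle. Rpl36al had a log2 fold change of 0.08 in GDF15 against vehicle (limma, SE 0.04, adjusted p = 0.497).

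Genes that work with the ribosomal proteins were counted from lists chosen with earlier results of these data known. Of 30 genes of translation factors and others known or thought to have TOP mRNAs, 6 were higher and 0 lower in pair-fed against vehicle (3.2% and 3.17% of all genes), with a median log2 fold change of 0.10. By limma 0 passed in GDF15 against pair-fed (0.929% and 1.24% of all genes) or in GDF15 against vehicle (0.431% and 0.338%). At an unadjusted p under 0.05, 1 was higher and 4 lower in GDF15 against pair-fed (6.29% and 6.87% of all genes), 10 higher and 0 lower in GDF15 against vehicle (5.63% and 5.41%) and 14 higher and 0 lower in pair-fed against vehicle (9.04% and 9.82%). Npm1, a nucleolar chaperone of ribosome assembly, had a log2 fold change of 0.18 (SE 0.04, limma adjusted p = 0.0160) and Eif4b, which assists the helicase that unwinds mRNA for scanning, one of 0.26 (SE 0.05, adjusted p = 0.0160). Eif3d, of the initiation complex, rose by 0.18 (adjusted p = 0.0433) and Hnrnpa1, an RNA-binding protein, by 0.19 (adjusted p = 0.0470) on the log2 scale. Both calls were lost under total scaling, and in 3 and 4 of 10 fits that left out a mouse. With GDF15 against vehicle the closest to the threshold was Eef1a1, the elongation factor that brings tRNA to the ribosome, at 0.22 (SE 0.06, adjusted p = 0.105).

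Of 60 ribosome biogenesis genes, 2 were lower and 0 higher in GDF15 against pair-fed (1.24% and 0.929% of all genes), and 7 were higher and 0 lower in pair-fed against vehicle (3.2% and 3.17% of all genes). In GDF15 against vehicle 0 passed by limma (0.431% and 0.338%). Without adjustment, at a p under 0.05, 0 were higher and 11 lower in GDF15 against pair-fed (6.29% and 6.87% of all genes), 4 higher and 1 lower in GDF15 against vehicle (5.63% and 5.41%) and 16 higher and 0 lower in pair-fed against vehicle (9.04% and 9.82%). The medians of the list were -0.09, 0.01 and 0.08 on the log2 scale. Rrs1, which recruits the 5S ribonucleoprotein with RPL5 and RPL11 to the growing large subunit, had 214, 223, 262, 237 and 208 normalized counts in vehicle. It ranged from 192 to 238 with GDF15 and had 296, 277, 270, 301 and 307 in pair-fed mice. All pair-fed mice lay above all the others. The log2 fold change was -0.41 in GDF15 against pair-fed (SE 0.07, limma adjusted p = 0.0116) and 0.34 in pair-fed against vehicle (SE 0.07, adjusted p = 0.0186). Ddx21, a nucleolar helicase, was lower in GDF15 against pair-fed (log2 fold change -0.20, adjusted p = 0.0563), a call lost in 6 of 11 fits that left out a mouse. Rrp1b, Nop56 and Utp15, which act in the processing of ribosomal RNA, were higher in pair-fed against vehicle by log2 fold changes of 0.60, 0.26 and 0.52 (adjusted p = 0.0363, 0.0397 and 0.0472). When each mouse was left out, the call of Rrp1b was lost in 0, that of Nop56 in 1 and that of Utp15 in 3 of 10 fits. Rrp1b and Utp15 had values of 0.43 and 0.37 in GDF15 against vehicle, which did not pass.

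Of 18 genes that regulate TOP mRNAs, 1 was higher and 0 lower in GDF15 against pair-fed (0.929% and 1.24% of all genes), and 1 was higher and 1 lower in pair-fed against vehicle (3.2% and 3.17% of all genes). In GDF15 against vehicle 0 passed by limma (0.431% and 0.338%). Without adjustment, at a p under 0.05, 1 was higher and 2 lower in GDF15 against pair-fed (6.29% and 6.87% of all genes), 2 higher and 0 lower in GDF15 against vehicle (5.63% and 5.41%) and 2 higher and 2 lower in pair-fed against vehicle (9.04% and 9.82%). Eif4ebp1, an inhibitor of cap-dependent initiation that mTORC1 inactivates, had 460, 479, 428, 411 and 446 normalized counts in vehicle and 506, 581, 533, 604 and 599 in pair-fed mice. The pair-fed mice lay above all vehicle mice, and the log2 fold change was 0.34 (SE 0.07, limma adjusted p = 0.0123). With GDF15 it ranged from 451 to 582 with a median of 500, and GDF15 against pair-fed gave -0.16 (SE 0.07, adjusted p = 0.301). Mlst8, a subunit of mTORC1 and mTORC2, had 243, 223, 246, 231 and 250 normalized counts in vehicle, 225 to 289 with GDF15 and 209, 212, 199, 162 and 219 in pair-fed mice. Its log2 fold change was 0.37 in GDF15 against pair-fed (SE 0.08, adjusted p = 0.0398) and -0.26 in pair-fed against vehicle (SE 0.08, adjusted p = 0.0951). All pair-fed mice lay below all the others. The first of these calls was lost without pair-fed mouse 5 (adjusted p = 0.101), and the second was lost in 9 of 10 such fits.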

How the data were processed

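RNA-seq of TA muscle gave 1 library for each of 16 mice, and groups and mouse numbers were taken from the labels. Per the labels and the study's methods, reads were trimmed with Trim Galore, quantified with Salmon and scaled with DESeq2 on mm10, with versions not given in the sources used here. The deposited values are log2 values of the form of DESeq2's variance stabilizing transformation, and the authors' values were transformed back to normalized counts.

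limma 3.58.1 (R 4.3.3, eBayes with trend, all groups in the fit) was run on log2(normalized count + 1) of 11841 genes with a mean of at least 10. The fit was tested on simulated data. Fold changes are on the log2(value + 1) scale and understate changes of low genes. Ratios of paralogues were compared with two-sided exact permutation tests, adjusted over 9 tests. Transcript lengths, positions and 31-base stretches came from GENCODE vM21 (GRCm38).

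Members, gene lists and tests were chosen with earlier results of these data known. Named members were the paralogue pairs, members with separate roles, in each comparison and direction the 5 members with the smallest adjusted p, those past both thresholds, the 3 most and least abundant per kb, and ribosomal protein genes with other symbols, and in each other list up to 4 genes with the smallest adjusted p. Same-numbered mice are different animals, and the p-values set differences between group means against the spread between mice.

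The alternatives were other pseudocounts and minimum means, no trend, library weights, fits of the groups compared, a block, other scalings, the deposited values, covariates, GC and length correction, a stricter threshold, other member definitions and leaving out each mouse. Intervals are for the log2 fold change and take their width from the spread between mice. Some genes that these rules name are not reported here.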

Additional observations from a re-analysis of the deposited data

Results flagged for a closer look

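Among 105 sets of values, 1 for each of 35 named members in each group, 7 held a mouse far from the others by the gap to its nearest neighbour relative to the range, where chance alone gives about 1 in 20. GDF15 mouse 1 stood highest in Rpl13a with 3215 normalized counts, pair-fed mouse 2 in Rpl22l1 with 493, GDF15 mouse 4 in Rplp1 with 4120 and vehicle mouse 3 in Rpsa with 5176. GDF15 mouse 6 stood lowest in Rplp0 with 7417. In Rpl39l, GDF15 mouse 2 with 2.12 and pair-fed mouse 3 with 2.04 normalized counts stood apart from mice at or near 0, which is about 2 reads. Rpl12 was flagged because its difference from vehicle was not the same with GDF15 and with pair-feeding: the difference between the effects was -0.59 on the log2 scale (limma adjusted p = 0.0852). Both effects use the same vehicle mice, so this is the same test as GDF15 against pair-fed in the report and no separate result, and it was lost in 9 of 11 fits that left out a mouse. The causes were not tested.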

How the results depend on the processing

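Rpl12, the member that passed in GDF15 against pair-fed, no longer passed, leaving 0 members, with no minimum mean, without the trend, with library weights, with the mouse number as a block, under total scaling, with depth as a covariate and at an adjusted p under 0.05. In GDF15 against vehicle the count was 0 without the trend, under the block and with the depth covariate, and 2 (Rpl10 and Rps4x) when only those groups were fitted. In pair-fed against vehicle 0 members passed both thresholds on the deposited log2 values. Under total scaling the median of the members was 0.0615 in GDF15 against pair-fed and -0.00282 in pair-fed against vehicle, where all genes moved to 0.0450 and -0.0453. Leaving out each mouse gave 0 to 1 members passing in GDF15 against pair-fed (0 to 1 past both thresholds), 0 to 1 in GDF15 against vehicle, and 3 to 7 in pair-fed against vehicle (0 to 2 past both), where without pair-fed mouse 3 the 7 include Rps4l as lower. Without vehicle mouse 5 none passed both, and without pair-fed mouse 2 or 5 there were 2. The log2 ratio of Rpl22l1 to Rpl22 in pair-fed against vehicle ranged from -0.0939 to 0.0185, turning sign without vehicle mouse 3. That of Rps27l to Rps27 in GDF15 against pair-fed ranged from -0.00861 to 0.381, turning sign without GDF15 mouse 6, and was -0.0234 on the deposited values. Over the tested genes, mice that share a number did not deviate together (correlations of -0.0994 to 0.0665 over 14 pairs). Such correlations cannot show whether mice were matched by design, for example in food intake. Under the block 6 members passed in pair-fed against vehicle. Except where a setting tests fewer samples, the causes were not tested. The low members, such as Rpl12, Rps4l and Rps27, rest on fewer counts than most members, and how far depth limits them was not tested.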
